A study of Rattus norvegicus with 88 samples.

Results

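The miR-34 family was followed through 3 miRNAs, rno-miR-34a, rno-miR-34b and rno-miR-34c, which were taken by name from the miRNA column of the scanner files and joined between arrays by probe name. They are 3 of the 677 miRNAs on the array and 3 of the 314 that were detected on at least 1 array. The samples were 88 livers of untreated F344 (Fischer) rats, 45 from females and 43 from males, with 1 animal on each array and RNA taken from a small portion of homogenized tissue. The 9 ages ran from 2 weeks through 5, 6, 8, 15 and 21 weeks to 52, 78 and finally 104 weeks, and each held 5 animals of each sex except for 4 males at 5 and at 104 weeks. Rats of 2 weeks are called young here, those of 5 to 21 weeks adult, and those from 52 weeks on old. All animals came from 1 breeding colony, none was treated, and females were taken at whatever stage of the estrus cycle they were in.

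A miRNA is a short RNA that lowers the output of the mRNAs it pairs with, mostly through its seed, bases 2 to 8 from its 5′ end. The miR-34 genes are textbook targets of the tumor suppressor p53, which binds near their start sites and raises their transcription after DNA damage and in senescent cells. Mature miR-34 represses cell-cycle and survival genes such as Cdk6, Ccnd1, Bcl2 and the deacetylase Sirt1. miR-34a is the form found in most tissues, whereas miR-34b and miR-34c are made from 1 shared primary transcript and are best known from testis and ciliated airway epithelium.

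The mature sequences show what the members share and where they part, and are given from RefSeq on the rat build GRCr8, with the seed in capitals. All 3 members were matched there by name, as was miR-449a, which carries the same seed from another locus and is shown for that reason.
miR-34a: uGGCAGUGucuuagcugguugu
miR-34b: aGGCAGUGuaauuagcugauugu
miR-34c: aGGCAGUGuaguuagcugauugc
miR-449a: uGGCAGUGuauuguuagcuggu
The seed GGCAGUG was identical in all of these. miR-34b and miR-34c were the same at 21 of 23 bases, and the changes from miR-34b to miR-34c were A11G and U23C, counted from the 5′ end. miR-34a was identical to miR-34b at 19 and to miR-34c at 18 of 23 aligned positions. The Mir34a hairpin lies on chromosome 5 at 165815952 to 165816053 on the plus strand. The Mir34b hairpin lies on the minus strand of chromosome 8 at 60306609 to 60306692, and the Mir34c hairpin on the same strand at 60306091 to 60306167, so that 441 bases lie between them. The array measured each member with 2 probe sequences, and its signals cannot show how much of a signal came from a near-identical miRNA.

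Levels are given as normalized intensity, which is the total gene signal of a miRNA divided by the 75th percentile of the expressed miRNAs on the same array. Intensities of different miRNAs depend on their probes and were not compared as amounts. The scaling value ranged from 28.1 to 289 between arrays (median 62.1), between 134 and 255 miRNAs were detected per array, and undetected miRNAs were set to 0.012, the lowest normalized intensity on any array. The faintest intensity detected on an array was 0.0434 at the median, so a low miRNA could be missed on 1 array and seen on another. The liver markers miR-122, miR-192 and miR-194 (hepatocytes) summed to between 399 and 1388 on the arrays. Arrays fell into 5 scans by scan time, which served as the batch.

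rno-miR-34a was detected on all 88 arrays, rno-miR-34b on 57 and rno-miR-34c on 35. Every array with miR-34c also had miR-34b, 22 arrays had miR-34b without miR-34c, and 31 had neither. The other arms of the 3 hairpins (miR-34a*, miR-34b* and miR-34c*) and the miRNAs with the same seed (miR-449a and miR-449c-5p) were detected on 0 of 88 arrays. Detection of the low members went with array sensitivity. The median over arrays of the faintest detected intensity was 0.0354 where miR-34b was detected and 0.0668 where it was not, and for miR-34c it was 0.0296 and 0.0588. How much of the difference in detection comes from sensitivity was not tested.

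miR-34a was lowest at 2 weeks, lay between these and the old rats from 5 to 21 weeks, and was highest in the old rats (F test over the 9 ages, limma adjusted p = 2.7e-13 in females and 1.3e-18 in males). At 2 weeks its normalized intensities were 0.533, 0.471, 0.524, 0.461 and 0.455 in females and 0.424, 0.385, 0.286, 0.410 and 0.378 in males. From 5 to 21 weeks the 25 adult females ranged from 0.962 to 2.20 (median 1.47) and the 24 adult males from 1.0 to 1.90 (median 1.35). No 2-week liver reached the lowest adult liver of either sex. In females the means were 1.55 ± 0.192, 1.63 ± 0.484, 1.48 ± 0.448, 1.24 ± 0.202 and 1.59 ± 0.244 at 5, 6, 8, 15 and 21 weeks, and in males 1.66 ± 0.0719, 1.49 ± 0.336, 1.36 ± 0.226, 1.22 ± 0.132 and 1.36 ± 0.134 (SD, n = 5, or 4 for males of 5 weeks). These adult means lay close together, and no step between neighbouring adult levels passed the test. In liver tissue a change in the number of cells of a type and a change in the RNA per cell cannot be told apart.

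**Figure D1:**
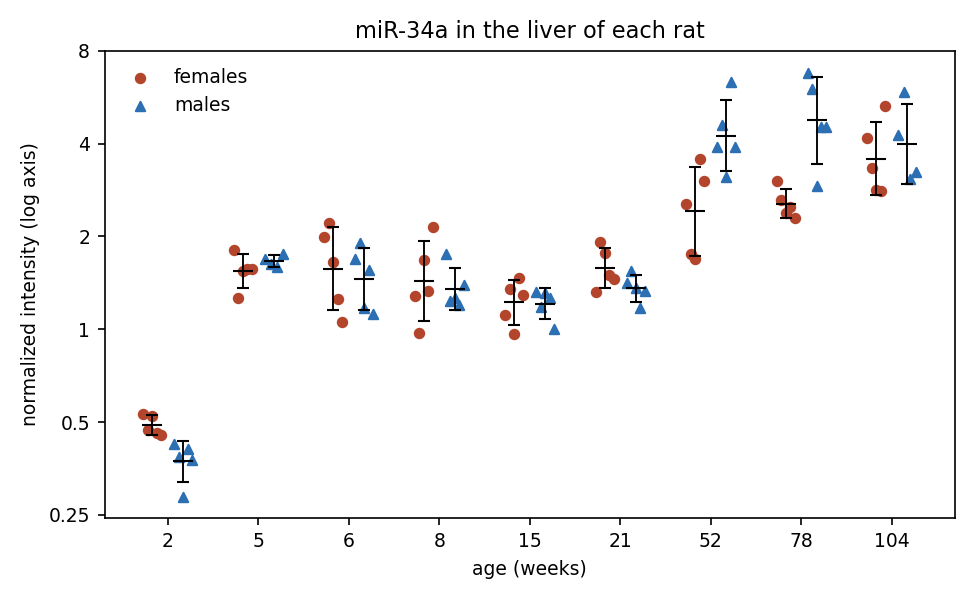
Normalized intensity of miR-34a (log axis) in each liver by age in weeks; circles are females, triangles are males, and bars give the mean and SD of the log2 values of a group. The 2-week livers reach at most 0.533, the 5 to 21 week livers lie between 0.962 and 2.20, and no male of 52 weeks or older is below 2.92.

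In adult against young rats, miR-34a was 3.0-fold higher in females (log2 difference 1.58, SE 0.17, limma adjusted p = 7.7e-11, n = 25 and 5) and 3.72-fold higher in males (1.90, SE 0.15, limma adjusted p = 5.7e-15, n = 24 and 5). Of all 314 miRNAs, 22.9% rose past the same thresholds (adjusted p under 0.05 and at least 1.5-fold) in females and 29.9% in males, so a rise between these classes was common on this array. The size of this rise turned on the scaling. It was 0.93 in females and 0.78 in males with the 75th percentile taken over the 103 miRNAs found on each array, and 2.35 and 3.09 with the percentile over all miRNAs. These scalings moved the median of all miRNAs in this comparison by between -0.40 and 0.49 on the log2 scale. Within single scans, which held 1 or 2 young females or 1 or 3 young males, the rise was 1.47 to 1.63 in females and 1.93 to 1.95 in males. Some marker lists rose with miR-34a here and others did not. The hepatocyte sum had a median of 653 in young and 1024 in adult females, and of 418 and 970 in males, and all 3 hepatocyte miRNAs and both erythroid ones measured (miR-144 and miR-451) passed in both sexes. Of the 5 biliary miRNAs (miR-200a, miR-200b, miR-200c, miR-141 and miR-429) 0 rose past the thresholds in either sex. In females miR-200a and miR-200b fell (log2 difference -0.73 and -1.39, limma adjusted p = 0.027 and 0.0034). Of the 5 stellate and smooth muscle miRNAs 0 passed in females and 1 rose in males. In either direction 39.8% of all miRNAs passed in females and 49.7% in males. The part of these markers in the miR-34a result was not tested.

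At 52 weeks the miR-34a intensities were 2.55, 1.75, 1.69, 3.58 and 3.02 in females and 3.89, 4.61, 3.11, 6.33 and 3.90 in males. At 78 weeks they were 3.03, 2.63, 2.38, 2.49 and 2.30 in females and 6.77, 6.03, 2.92, 4.53 and 4.53 in males. At 104 weeks they were 4.17, 3.34, 2.84, 2.81 and 5.29 in females and 4.26, 5.90, 3.08 and 3.24 in males. The means at 52, 78 and 104 weeks were 2.52 ± 0.813, 2.56 ± 0.286 and 3.69 ± 1.05 in females and 4.37 ± 1.22, 4.96 ± 1.5 and 4.12 ± 1.30 in males (SD, n = 5, or 4 for males of 104 weeks). Every old male lay above every adult male, whereas 2 females of 52 weeks lay within the range of the adult females.

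Old females had 1.92-fold more miR-34a than adult females (log2 difference 0.94, 95% interval 0.71 to 1.17, limma adjusted p = 7.7e-08, n = 15 and 25), and old males 3.12-fold more than adult males (1.64, 95% interval 1.44 to 1.85, adjusted p = 8.5e-17, n = 14 and 24). Of all 314 miRNAs, 1.59% rose from adult to old in females and 3.82% in males. miR-34a had the smallest p of the 314 miRNAs in both sexes and ranked 5 in females and 4 in males by the size of the rise. Both of its probe sequences moved together. The ratio of old to adult mean signal was 1.95 and 1.95 for the 2 probes in females and 2.97 and 3.31 in males. Within scans 2 to 5, the scans that held old and adult rats of a sex, the difference was 0.76 to 1.06 in females and 1.44 to 2.11 in males. Each of these scans held 1 to 6 old females and 2 to 5 old males.

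Against the 5 to 21 week baseline, miR-34a was higher at each old age in each sex. In females the log2 difference was 0.72 at 52 weeks (SE 0.16, limma adjusted p = 0.0038), 0.80 at 78 weeks (SE 0.16, adjusted p = 0.0017) and 1.29 at 104 weeks (SE 0.16, adjusted p = 1.4e-07). The shares of all miRNAs that were higher by the same rule in females were 2.87%, 7.64% and 1.91%. The 52-week value in females leaned on female 8, and without that animal it was 0.58 (adjusted p = 0.042), just short of 1.5-fold. The call was also lost with the 75th percentile over the miRNAs found on each array (0.47) or over all miRNAs (0.52) and with normexp background correction (0.46), and the same settings ended the call at 78 weeks (0.53, 0.78 and 0.58). Every value stayed above 0. In males the log2 difference was 1.61 at 52 weeks (SE 0.15, limma adjusted p = 1.0e-10), 1.78 at 78 weeks (SE 0.15, adjusted p = 5.3e-12) and 1.52 at 104 weeks (SE 0.16, adjusted p = 7.6e-09). The shares of all miRNAs in males were 1.91%, 3.18% and 5.73%. In both sexes miR-34a had the smallest p of all miRNAs at 78 and 104 weeks, and in males at 52 weeks too.

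**Figure D2:**
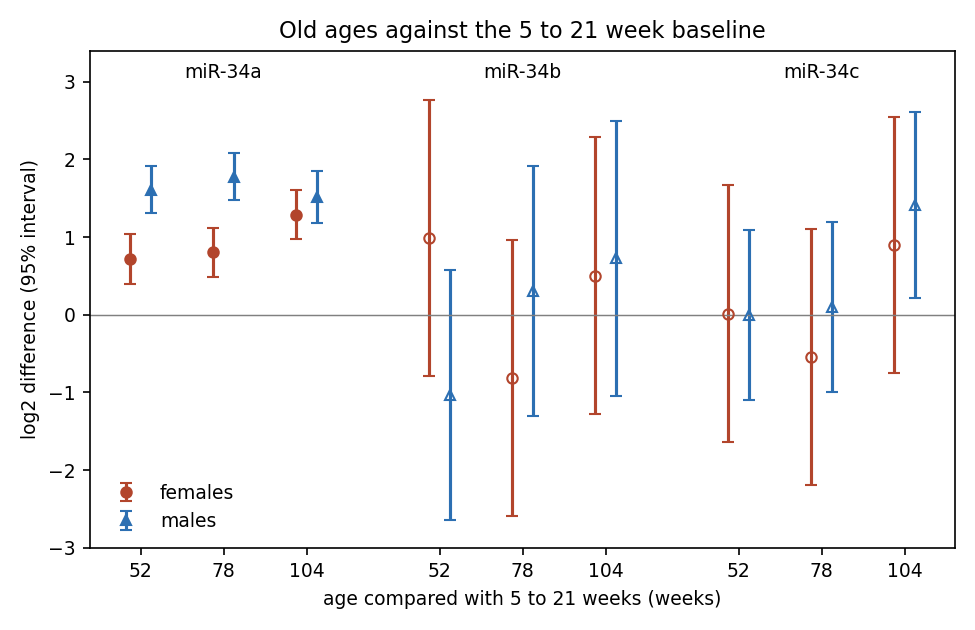
Log2 difference of each old age from the 5 to 21 week baseline for the 3 members, with 95% intervals; circles are females, triangles are males, and filled symbols passed the adjusted p and the 1.5-fold threshold. All 6 miR-34a differences are filled, from 0.72 to 1.78, and the wide intervals of miR-34b and miR-34c leave none of theirs filled.

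Ordered by mean log2 level, the ages in females ran 2, 15, 8, 5, 6, 21, 52, 78 and 104 weeks. In this order only the step from 2 to 15 weeks passed the test between neighbours (2.51-fold, limma adjusted p = 5.9e-07). The step from 21 to 52 weeks was 1.53-fold and did not (adjusted p = 0.17), nor did that from 78 to 104 weeks (1.40-fold, adjusted p = 0.18). In males the order was 2, 15, 8, 21, 6, 5, 104, 52 and 78 weeks. Here both the step from 2 to 15 weeks (3.24-fold, adjusted p = 6.5e-10) and that from 5 to 104 weeks (2.39-fold, adjusted p = 2.6e-05) passed, and the steps between the 3 old ages did not (adjusted p = 1.0 and 0.99). Over all 36 pairs of ages, 21 passed in females and 23 in males for miR-34a, where 13.7% and 13.1% of the tests over all miRNAs did. The female count was 10 with the percentile over all miRNAs.

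The rise from adult to old was larger in males. The male minus female difference of the log2 change was 0.70 (95% interval 0.40 to 1.01, limma adjusted p = 0.0053), and 1.59% of all miRNAs passed this test of unequal change. It was 0.74 with the scan as a block (adjusted p = 0.0028) and 0.56, 0.68, 0.70 and 1.18 within the 4 scans that held both classes of both sexes. Scan 2, at 0.70, held 1 old female, and scan 4, at 1.18, held 2 old males. With the 75th percentile taken over all miRNAs the sex difference of the change was 0.58 and no longer passed (adjusted p = 1.0). Without females 1 and 8 of 104 weeks, whose arrays are described further on, it was 0.82 (adjusted p = 1.0e-04), and the female rise itself 0.82 (adjusted p = 4.1e-07). Compared at single ages, males had 1.76-fold more miR-34a than females at 52 weeks (log2 difference 0.82, SE 0.20, adjusted p = 0.0030) and 1.87-fold more at 78 weeks (0.90, SE 0.20, adjusted p = 0.0016). The ranges of the sexes overlapped at both ages. Within the scans that held both sexes of an age, with only 1 or 2 animals per sex in each, the difference was 1.19 and 1.33 at 52 weeks and 0.67, 0.79 and 1.48 at 78 weeks. At 104 weeks the difference was 0.15 (95% interval -0.26 to 0.57, adjusted p = 1.0), and none of the 6 younger ages passed. With normexp the differences at 52 and 78 weeks were 0.49 and 0.44, under 1.5-fold, and at 78 weeks the percentile over all miRNAs gave 1.36 but did not pass (adjusted p = 0.086). The share of all miRNAs that were higher in males was 2.55% at 52 weeks and 1.27% at 78 weeks.

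The miRNAs whose group means ran most like those of miR-34a over the 18 groups were miR-142-3p (Pearson r = 0.88), miR-223 (0.87), miR-146a (0.86), miR-142-5p (0.85) and miR-29c* (0.83), out of 171 others detected on at least 44 arrays. Over the 16 groups of 5 weeks and older they were miR-223 (0.77), miR-142-3p (0.70), miR-146a (0.64), miR-142-5p (0.63) and miR-29b (0.59). Each group mean comes from the same arrays and scaling as that of miR-34a. All but the miR-29 forms are on the leukocyte marker list (miR-142-3p, miR-142-5p, miR-223, miR-150 and miR-146a were measured). The summed intensity of these 5 ranged from 9.25 to 19.8 in adult females and from 14.5 to 37.2 in old females. In males it ranged from 11.6 to 18.6 in adults and from 13.2 to 30.5 in the old. Of the 5, 0 reached 1.5-fold from adult to old in either sex, which is near the share of all miRNAs past the thresholds in either direction (4.46% in females and 5.1% in males), with median log2 differences of 0.21 in females and 0.51 in males beside 0.94 and 1.64 for miR-34a. Smaller differences in the direction of miR-34a had a limma adjusted p under 0.05 for 4 of the 5 in males, miR-223 (1.48-fold, adjusted p = 7.9e-07), miR-146a (1.30-fold, 1.2e-04), miR-142-3p (1.44-fold, 0.0024) and miR-142-5p (1.42-fold, 0.042). In females miR-142-3p (1.35-fold, adjusted p = 0.030) and miR-142-5p (1.45-fold, 0.019) did so. At 104 weeks against the adult baseline miR-142-3p (1.75-fold, adjusted p = 0.0062) and miR-223 (1.51-fold, 7.1e-04) passed both thresholds in females. Females 1 and 8 of 104 weeks had the sums of 27.1 and 37.2, and the other females of that age 14.8 to 17.4, beside an adult female median of 14.7. Without these 2 arrays miR-142-3p was 1.20-fold (adjusted p = 0.66) and miR-223 1.24-fold (adjusted p = 0.19) at 104 weeks, and none of the 5 had an adjusted p under 0.05 from adult to old in females. From young to adult 4 of the 5 rose past both in females and 5 in males, where 22.9% and 29.9% of all miRNAs did. The part of these markers in the miR-34a rise was not tested in either sex.

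miR-34b was near the limit of detection on most arrays and did not pass the test from adult to old. It was detected on 18 of 25 adult and 11 of 15 old female arrays, and on 12 of 24 adult and 7 of 14 old male arrays. Its detected intensities in adults were 0.105 to 0.237 in females and 0.0791 to 0.218 in males. The log2 difference of old from adult was 0.23 in females (95% interval -0.97 to 1.42, limma adjusted p = 0.99) and -0.05 in males (95% interval -1.16 to 1.06, adjusted p = 1.0). Detection did not pass between old and adult rats in either sex (two-sided Fisher's exact test, adjusted p = 1.0 over the 3 members and both sexes).

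miR-34c was detected less often still. It was found on 13 of 25 adult and 7 of 15 old female arrays, and on 4 of 24 adult and 5 of 14 old male arrays. None of the 5 males had it at 6, at 15 or at 21 weeks, 1 of 5 had it at 8, at 52 and at 78 weeks, and 3 of 4 had it at 5 and at 104 weeks. Females had it on 4 of 5 arrays at 2 and at 8 weeks, on 3 of 5 at 15, 21 and 52 weeks, and on 2 of 5 or fewer at the remaining ages. Outside females 1 and 8 of 104 weeks, described further on, its detected intensities were 0.0341 to 0.132. The log2 difference of old from adult was 0.12 in females (95% interval -0.98 to 1.22, limma adjusted p = 1.0) and 0.44 in males (95% interval -0.33 to 1.21, adjusted p = 0.66). From young to adult neither miR-34b nor miR-34c passed in either sex, with log2 differences of -0.21 and -0.38 in females and -0.13 and -0.19 in males, all 4 of which turned positive with undetected values at the lowest detected intensity of their own array. In males that setting gave 0.71 for miR-34b (adjusted p = 0.0097) and 1.08 for miR-34c (adjusted p = 1.5e-04), and moved the median of all miRNAs by 0.86. The mean processed signal also gave calls, 0.75 for miR-34b in females (adjusted p = 0.036), 0.995 for miR-34b in males (adjusted p = 1.1e-04) and 0.67 for miR-34c in males (adjusted p = 0.047), and moved that median by 0.23 in females and 0.39 in males. The young-to-adult change of these members is thus not settled in direction or call.

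**Figure D3:**
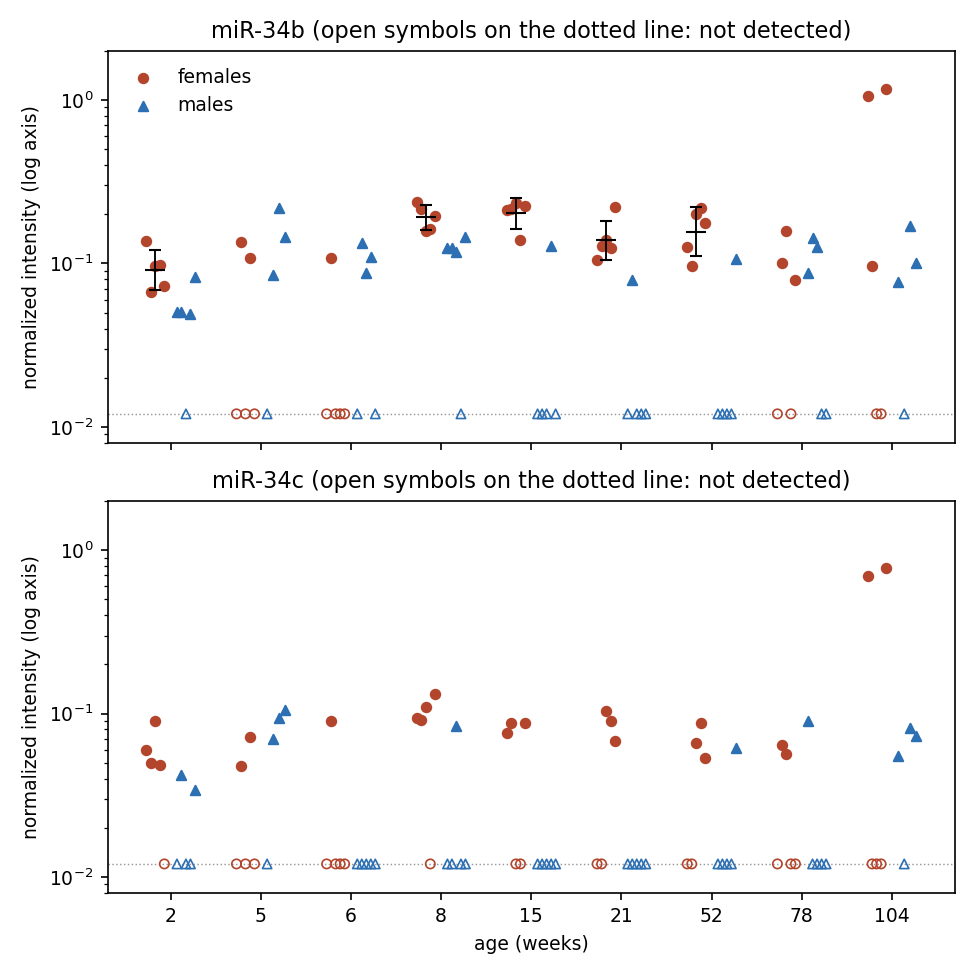
Normalized intensity of miR-34b (top) and miR-34c (bottom) in each liver by age in weeks on log axes; circles are females, triangles are males, open symbols on the dotted line are arrays without detection, and bars give the mean and SD of the log2 values where a whole group was detected. Females 1 and 8 of 104 weeks sit far above all other arrays, at 1.06 and 1.17 for miR-34b and at 0.692 and 0.776 for miR-34c.

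The F test over the 9 ages passed for miR-34b in females (limma adjusted p = 0.0083) and for miR-34c in males (adjusted p = 0.023), where 61.8% of all miRNAs passed in females and 56.1% in males, so passing this test was common. It did not pass for miR-34b in males (adjusted p = 0.26) or miR-34c in females (adjusted p = 0.71). For miR-34b in females 7 of the 36 pairs of ages passed and for miR-34c in males 2 did, both of the latter setting 5 weeks (detected on 3 of 4 arrays) above an age with no detection. These counts moved widely over the alternatives, as given in the closing section. In females miR-34b was found on 1 of 5 arrays at 6 weeks and 2 of 5 at 5 weeks, and on 5 of 5 at each of 8, 15, 21 and 52 weeks. At 8 weeks the females measured 0.237, 0.216, 0.158, 0.163 and 0.195, and at 15 weeks 0.211, 0.216, 0.236, 0.139 and 0.225. These are the highest group levels of miR-34b on the log2 scale. In males it was found on 4 of 5 arrays at 2 and at 8 weeks, on 3 of 5 at 6 and at 78 weeks, and on 3 of 4 at 5 and at 104 weeks.

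The sexes parted in miR-34b at 15, 21 and 52 weeks. At each of these ages it was detected on 5 of 5 female and 1 of 5 male arrays. At 21 weeks the female intensities were 0.105, 0.128, 0.138, 0.124 and 0.220 and the 1 male value was 0.0791. At 52 weeks the females had 0.125, 0.0959, 0.202, 0.219 and 0.176 and the 1 male value was 0.107, above 1 of the females. At 15 weeks the 1 male value was 0.128, below every female. The log2 difference of males from females was -3.39 at 15 weeks (SE 0.95, limma adjusted p = 0.012), -2.98 at 21 weeks (SE 0.95, adjusted p = 0.035) and -3.07 at 52 weeks (SE 0.95, adjusted p = 0.024). The shares of all miRNAs that were higher in females were 6.05% at 15 weeks, 3.5% at 21 weeks and 4.14% at 52 weeks.

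These sizes are set by the value given to undetected arrays, and the male arrays were less sensitive at these ages. The median of the faintest detected intensity was 0.0354 in females and 0.0775 in males at 15 weeks, 0.0443 and 0.0773 at 21 weeks, and 0.0334 and 0.0496 at 52 weeks. With undetected miR-34b set to the lowest detected intensity of its own array, the difference was -1.21 at 15 weeks (adjusted p = 0.017), -0.82 at 21 weeks (adjusted p = 0.24) and -1.25 at 52 weeks (adjusted p = 0.057). The summed signal of the 2 miR-34b probes, which has a value on every array, was 0.218 ± 0.0136 in females and 0.161 ± 0.0307 in males at 15 weeks, 0.205 ± 0.0328 and 0.162 ± 0.0410 at 21 weeks, and 0.185 ± 0.0270 and 0.153 ± 0.0391 at 52 weeks (SD, n = 5 each). Fisher's exact test on detection alone gave an adjusted p of 0.14 at each of the 3 ages over the 9 ages. With normexp background correction the differences were 0.25, 0.14 and 0.07, of the other sign. That setting adds an offset of 50 to every spot before scaling, which enters values near background, so this sign is not read as a sex difference of miR-34b. Left-out arrays also ended the calls at 21 and 52 weeks. The call at 21 weeks was lost without any 1 of females 2, 3, 4 and 6 or males 1, 4, 5 and 6 (adjusted p up to 0.092), and that at 52 weeks without any 1 of females 6, 8 and 9 or males 1, 5, 6 and 7 (adjusted p up to 0.076). No sex difference in miR-34c passed at any age.

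The change of miR-34a was also set against that of the miR-34b/c locus. In males of 5 weeks and older miR-34b was undetected on 19 of 38 arrays and miR-34c on 29 of 38, all at the same set value, so the sizes below depend on that value. The change of miR-34a alone was 1.64. The log2 ratio of miR-34a to miR-34b was higher by 1.69 in old than in adult males (two-sided permutation test with 100000 permutations, adjusted p = 0.013 over 4 tests), and that of miR-34a to miR-34c by 1.20 (adjusted p = 0.013). In females the corresponding values were 0.71 (adjusted p = 0.26) and 0.82 (adjusted p = 0.18). With undetected values at the lowest detected intensity of their own array, both passed in females too, at 0.81 (adjusted p = 0.021) and 0.90 (adjusted p = 0.0016), and the male values were 1.82 and 1.77. Without females 1 and 8 of 104 weeks the female values were 1.15 (adjusted p = 0.077) and 1.37 (adjusted p = 0.012). The test does not show that miR-34b or miR-34c stayed level.

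The variation of miR-34b and miR-34c between animals of the same sex and age was compared over all arrays, those at the set value included, and over the arrays that detected both. Over all arrays, their deviations from the group mean had a Pearson r of 0.65 and a Spearman rho of 0.59 over the 88 arrays (permutation test within groups, adjusted p = 3.0e-05 for each, which is the smallest that 100000 permutations and 3 pairs allow). The r was 0.60 without the 2 arrays farthest from the median and 0.62 with the scan means removed as well. Over the 35 arrays that detected both, r was 0.12 and rho -0.01 (permutation test, adjusted p = 0.62 and 0.96), so the relation did not hold among the arrays that measured both. Detection of both members went with array sensitivity, as given above, and its part in the relation was not tested. The relation of miR-34a to miR-34b (r = 0.17, rho = 0.14, adjusted p = 0.19 and 0.26) and to miR-34c (r = 0.24, rho = 0.16, adjusted p = 0.11 and 0.26) did not pass the permutation test, and without the 2 farthest arrays these r were 0.20 and 0.23. On arrays that detected both members of a pair, miR-34a and miR-34b had r = 0.14 and rho = 0.02 (57 arrays, adjusted p = 0.62 and 0.96). For miR-34a and miR-34c these were larger, at 0.39 and 0.44 (35 arrays), and did not pass either (adjusted p = 0.24 and 0.14).

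**Figure D4:**
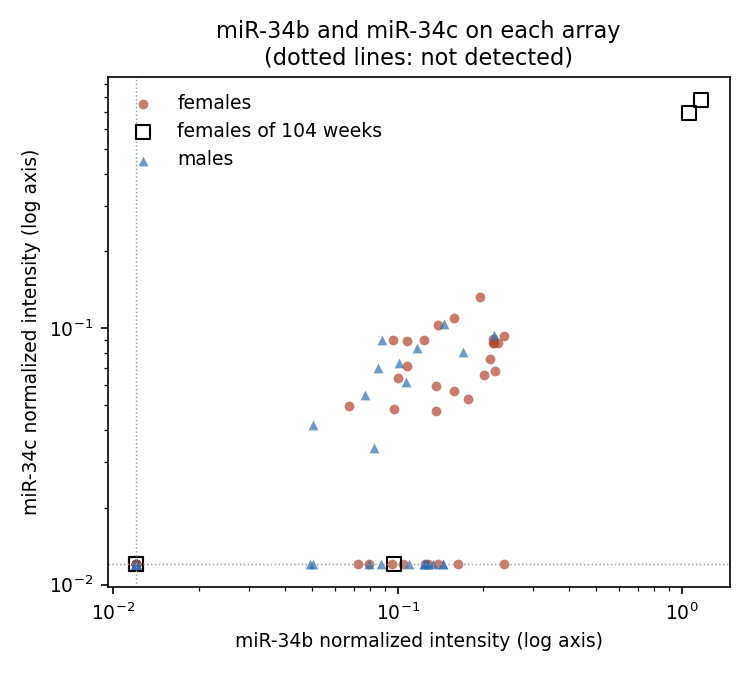
Normalized intensity of miR-34c against miR-34b on each array, both on log axes; circles are females, triangles are males, squares mark the 5 females of 104 weeks, and symbols on a dotted line were not detected on that axis. Of these 5 squares, 2 lie at the upper right, apart from all other arrays, and the rest lie on the dotted lines.

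The 2 arrays that stood apart were females 1 and 8 of 104 weeks. miR-34b was at 1.06 and 1.17 there, against 0.0969 in female 2 and no detection in females 5 and 7. miR-34c was at 0.692 and 0.776 and undetected in the other 3 females of that age. The third highest array of all 88 had 0.237 for miR-34b and 0.132 for miR-34c, so that the lower of these animals was 4.46-fold and 5.23-fold above it. The same animals had the highest miR-34a of the 104-week females, 4.17 and 5.29. Both probe sequences of miR-34b and of miR-34c were highest in these animals among the 104-week females, with 0.373 and 0.412 against at most 0.0928 in the other females of that age for the first miR-34b probe, and 0.683 and 0.760 against at most 0.116 for the second. For miR-34a the first probe gave 1.14 in female 1 and 1.17 in female 2, so the higher total of female 1 came from the second probe, at 3.03 against 2.18.

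The arrays of females 1 and 8 lay in scans 4 and 3, on different slides, with scaling values of 62.5 and 93.8 and 171 and 193 detected miRNAs, inside the range of the other arrays. Of the 276 miRNAs detected on more than 2 arrays, 5 had their 2 highest values in these animals. They were miR-34c, miR-34b, miR-363, miR-342-3p and miR-146b, named here after their values were seen. In female 1 and female 8 the summed leukocyte markers were 27.1 and 37.2, ranks 3 and 1 of the 88 arrays, against 14.8 to 17.4 in the other 104-week females. The summed hepatocyte markers were 691 and 713, ranks 75 and 74, against 1060 to 1234. The summed biliary markers (miR-200a, miR-200b, miR-200c, miR-141 and miR-429) were 1.84 and 2.52, ranks 53 and 39, against 0.378 to 1.43, and thus near the adult female median of 1.91. The ciliated-cell miRNAs miR-449a and miR-449c were not detected. The part of other cell types in these 2 values was not tested.

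Without females 1 and 8, an alternative chosen after their values were seen, the difference of 104-week females from the adult baseline moved from 0.50 to -1.71 for miR-34b and from 0.90 to -1.48 for miR-34c, and passed in neither form (adjusted p = 1.0 and 0.81 with them, 0.51 for both without them). For miR-34a it moved from 1.29 to 1.03 and still passed (adjusted p = 4.8e-04). In males of 104 weeks miR-34c was 1.41 above the adult baseline (SE 0.59, adjusted p = 0.16), with 0.0549, 0.0810 and 0.0733 in 3 animals and no detection in male 3. Without male 3 it was 2.04 and passed (adjusted p = 0.034), but 20 of the 24 adult males are at the set value, and the difference over all animals was -0.11 with the floor of each array, -0.09 with the mean processed signal and -0.22 with normexp.

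The group means of miR-34b ran most like those of miR-340-3p (r = 0.83), miR-532-3p (0.79), miR-30b-3p (0.73), miR-152 (0.72) and miR-324-5p (0.70) over the 18 groups. For miR-34c the order was miR-324-5p (0.85), miR-340-3p (0.84), miR-532-3p (0.79), miR-34b (0.79) and miR-185 (0.69). From 5 weeks on, the leading ones were miR-340-3p, miR-148b-3p and miR-362* for miR-34b (0.84, 0.84 and 0.83) and miR-324-5p, miR-322* and miR-340-3p for miR-34c (0.88, 0.85 and 0.85). miR-34a was in neither set. All these group means come from the same arrays and scaling, and the part of array sensitivity in them was not tested.

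Other miRNAs are linked to p53 either as its transcriptional targets or by faster processing. Of the 11 listed, 10 were measured (miR-192, miR-194, miR-215, miR-143, miR-145, miR-107, miR-16, miR-200c, miR-141 and miR-22). Of these, miR-215 was detected on 0 female arrays and 1 male array, miR-200c on 7 and 3, and miR-145 on 19 and 12, so their values rest largely on the set floor. From adult to old 0 of 10 passed the thresholds in either sex, with log2 differences from -0.46 to 0.15 in females (median 0.06 without miR-215) and from -0.34 to 0.27 in males (median -0.03). The median over all 314 miRNAs was 0.00, but it includes miRNAs at the set value in both classes, whose difference is 0 by construction. With 4.46% of all miRNAs past the thresholds in either direction in females and 5.1% in males, a count of 0 in 10 is near the background and is no result about the list. miR-16, a cell-cycle regulator named after its value was seen, had an adjusted p of 0.019 in females and 9.6e-05 in males but differed by less than 1.5-fold (-0.25 and -0.30). In males miR-107 (0.27, adjusted p = 7.1e-04) and miR-143 (-0.31, adjusted p = 0.015) did likewise, in opposite directions, and the remaining 7 had an adjusted p above 0.05. From young to adult 5 of the 10 rose in females and 6 in males, where 22.9% and 29.9% of all miRNAs did, and none of the 10 passed as lower. They were miR-107, miR-16, miR-192, miR-194 and miR-22 in both sexes and miR-143 in males. Medians over the list were 0.73 in females (9 members, without miR-215) and 0.91 in males, beside 0.13 over all miRNAs in each sex, undetected ones included. miR-192 and miR-194 are also hepatocyte markers, and all 3 of that list rose here. miR-143 and miR-145 are on the stellate list, and miR-200c and miR-141 on the biliary list. The scalings moved the median of all miRNAs in this comparison by between -0.40 and 0.49.

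**Figure D5:**
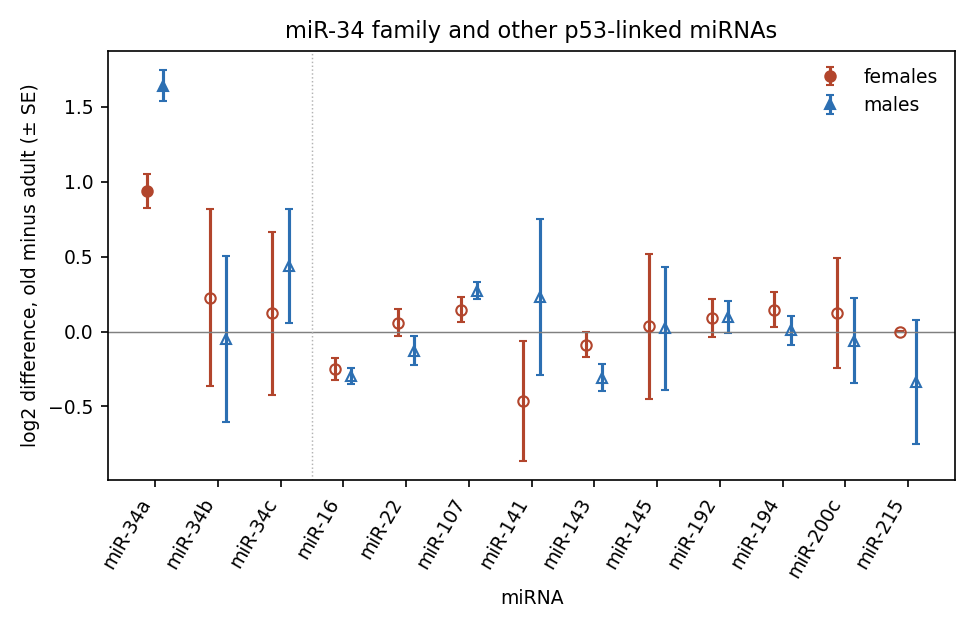
Log2 difference of old from adult rats (± SE) for the 3 members (left of the dotted line) and 10 other p53-linked miRNAs; circles are females, triangles are males, and filled symbols passed both thresholds. Only the 2 miR-34a symbols, at 0.94 and 1.64, are filled.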

How the data were processed

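Agilent rat miRNA arrays of 1 colour (version 16) measured liver RNA of 88 rats. The authors deposited Feature Extraction output (version 10.7 in the methods), whose signals are background-subtracted linear intensity values with 0.1 for an undetected miRNA, and 1 table of ratio values, the total gene signal over the array's 75th percentile. The authors' 4 processing batches are not assigned to samples in the text used here, so scans parted by more than 8 hours served as the batch. A total of 17 arrays used a later design version, and names were joined by probe.

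Total gene signals were divided by the value of rank 236 among the 314 expressed miRNAs, with 1.84 for undetected ones, then undetected values were set to 0.012 and log2 was taken. Of 15763 detected values 1 differed from the deposited table by over 0.01 percent. limma 3.58.1 in R 4.3.3 (lmFit, eBayes) was fitted on all 314, with Benjamini-Hochberg adjustment and thresholds of 0.05 and 1.5-fold (adjusted p only for the sex difference of the change and for the F test). Young, adult and old were fitted within each sex, each old age against 5 to 21 weeks within each sex, and the sexes at each age in 1 model of 18 groups. Python 3.11.15 with scipy 1.17.1 ran the permutation and Fisher's tests. The normexp alternative used median spot signals with an offset of 50, because the files used hold no mean signals. The fits were checked on simulated data.

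The named miRNAs are the members, their other arms, those with the same seed, the p53-linked and cell type lists, and for each member the 5 miRNAs of most similar group means (over 18 groups, and over 16 without 2 weeks). From the seed and p53-linked lists, the 3 past the thresholds with the largest change from adult to old in a sex were to be named, and none passed. Markers of erythroid, stellate, skeletal muscle and pancreatic cells are reported in the closing section. The members and lists were chosen with earlier results of these data known. Replicate numbers were not taken as pairs of animals. The mean correlation of deviations was 0.053 between arrays of different groups that share a number and -0.0076 between those that do not. In 17 of 33 same-age pairs of opposite sex that share a number it exceeded 0.1, and no such count was made for other pairs. Whether the numbers pair animals is thus not settled. The alternatives changed the percentile, the value for undetected miRNAs, the signal column, the filter, the block (scan, slide or replicate number) and single left-out arrays. The number of arrays limits the precision, and every array is a separate animal.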

Additional observations from a re-analysis of the deposited data

Results flagged for a closer look

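The sex difference of the change in miR-34a from adult to old, 0.70 on the log2 scale (limma adjusted p = 0.0053), is set apart because the same contrast differed between females and males by a test of the difference itself. The old males were higher than the old females relative to the adults of their sex. Within-scan values were all above 0 (0.56 to 1.18), from scans with as few as 1 old female or 2 old males.

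Single animals stood far from the rest of their group in 12 of the 51 combinations of member, sex and age that could be examined, and none was for miR-34a. Chance sets apart about 1 in 20 groups of measured values, but 11 of the 12 sets held 1 array, or all but 1 array, with detection and the rest at the set value, so this number is not to be read against that rate. The only one in a group detected throughout was the lowest miR-34b of the 15-week females, 0.139 in female 5. A single detected array gave miR-34b at 0.128 in male 4 of 15 weeks, 0.0791 in male 3 of 21 weeks, 0.107 in male 10 of 52 weeks and 0.108 in female 2 of 6 weeks. A single detected array also gave miR-34c at 0.0619 in male 10 of 52 weeks, 0.0896 in female 2 of 6 weeks, 0.0899 in male 2 of 78 weeks and 0.0838 in male 4 of 8 weeks. The others were single undetected arrays, set to 0.012, for miR-34b in male 3 of 2 weeks and male 5 of 8 weeks and for miR-34c in female 5 of 8 weeks. Females 1 and 8 of 104 weeks, which share the high values, do not meet this criterion.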

How the results depend on the processing

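The rise of miR-34a from adult to old kept its direction and passed in both sexes under every alternative that was tested, with log2 differences of 0.63 to 1.02 in females and 1.02 to 1.69 in males. Within single scans, where no test was made, it was 0.76 to 1.06 in females and 1.44 to 2.11 in males. The highest male value was that of scan 4, which held 2 old males. The rise from young to adult passed under all tested alternatives too, at 0.78 to 2.35 in females and 0.78 to 3.09 in males. The sex difference of the change passed under all but 1, the 75th percentile over all miRNAs of the array, which gave 0.58 (adjusted p = 1.0), and was 1.18 within scan 4. Leaving out each array in turn gave 0.65 to 0.77 for it. With the replicate block it was 0.87, and whether these numbers pair animals is not settled. The block left the other main results on their side of the threshold while miR-34c in old against adult females moved to -0.048. Among single ages the block ended the call of miR-34a in females of 52 weeks (0.46) and that of miR-34b between the sexes at 52 weeks (-2.64). The small sex difference of miR-34a at 104 weeks turned to -0.34 with the percentile over all miRNAs, and ran from -0.036 to 0.29 when arrays were left out.

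The values of miR-34b and miR-34c changed sign under several alternatives. Some of these changed the value for undetected arrays, and others changed the scaling, the signal, the block or the arrays used. The cause was not tested for any of them. For miR-34b in old against adult females the difference was -0.0050 with the raw minimum before scaling, -0.011 with normexp, -0.33 without females 1 and 8 of 104 weeks (chosen after seeing the data), -1.84 within scan 5 and -0.035 to 0.44 when arrays were left out. In males it was 0.053 with the scan as a block, 0.038 with the slide as a random block and -0.22 to 0.075 without single arrays. For miR-34b in adult against young females it was 0.10 with the percentile over all miRNAs, 0.46 with the floor of each array, 0.30 with the raw minimum, 0.75 with the mean processed signal, 0.48 with normexp and -1.74 within scan 2. In males the same settings gave 0.55, 0.71, 0.37, 0.995 and 0.58, the scan block 0.16, and left-out arrays -0.58 to 0.12. The sex difference of the miR-34b change was 0.11 with the scan block, 0.077 with the slide block and 0.28 without females 1 and 8. The sex differences of miR-34b at 15, 21 and 52 weeks were 0.25, 0.14 and 0.065 with normexp, whose added offset enters such low values.

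For miR-34c in old against adult females the difference was -0.10 with the raw minimum, -0.074 with the mean processed signal, -0.046 with normexp, -0.10 with the scan block, -0.54 without females 1 and 8, and -0.19 to 0.24 without single arrays. In males it was -0.12 with the floor of each array, -0.51 with the mean processed signal and -0.10 with normexp. In adult against young females it was 0.37 with the floor of each array, 0.30 with the raw minimum, 0.46 with the mean processed signal and 0.46 with normexp, and in males 1.08, 0.64, 0.67 and 0.57, with -0.35 to 0.10 without single arrays. The sex difference of the miR-34c change was -0.16, -0.44 and -0.052 with the floor of each array, the mean processed signal and normexp. At 104 weeks against adult males it was -0.11, -0.088 and -0.22 with these. At 104 weeks against adult females, miR-34b was -1.71 and miR-34c -1.48 without females 1 and 8, and without single arrays they ran -0.34 to 1.31 and -0.014 to 1.49.

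The change of miR-34a against its partners in females passed with the floor of each array at 0.81 for miR-34b and 0.90 for miR-34c, and without females 1 and 8 at 1.37 for miR-34c. The correlation of miR-34b with miR-34c was 0.12 on arrays that detected both. The count of age pairs past the thresholds moved from 21 to 10 for miR-34a in females with the percentile over all miRNAs. Over all alternatives it ran from 10 to 22 for miR-34a in females and from 16 to 24 in males, from 1 to 10 for miR-34b in females, and from 0 to 10 for miR-34c in males. Low signal over background limits miR-34b and miR-34c, which were undetected on 31 and 53 of the 88 arrays.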

Other observations

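Among the other cell type lists, miR-375, an endocrine and epithelial miRNA, was higher in old than in adult rats, by 1.47 on the log2 scale in females (limma adjusted p = 4.6e-04) and 1.96 in males (adjusted p = 0.019). The remaining pancreas markers, miR-216a and miR-217, did not pass. miR-375 was named after its value was seen. The muscle miRNAs miR-1 and miR-133b fell from adult to old in females, by 3.42 and 3.64 (adjusted p = 0.016 and 0.024), and none of the 5 muscle miRNAs passed in males, where miR-1 differed by -1.80 (adjusted p = 0.39). The summed muscle markers ran from 0 to 21.2 in adult females and from 0 to 65.6 in adult males, with medians of 0.436 and 0.131. Of the stellate and smooth muscle list 0 of 5 and of the erythroid list 0 of 2 passed from adult to old in either sex, with median log2 differences of 0.01 and 0.56 in females and 0.01 and 0.05 in males. Of the biliary list miR-200b fell from adult to old in males, by 0.79 (limma adjusted p = 0.011), and 0 of 5 passed in females, where miR-200b differed by -0.63 (adjusted p = 0.16). Shares of 4.46% of all miRNAs in females and 5.1% in males passed in either direction, so that the counts of 0 are near the background and say nothing particular of these lists. In old against adult females miR-451 was 1.40-fold higher (limma adjusted p = 0.034), under 1.5-fold, and miR-144 1.55-fold (adjusted p = 0.18). The summed erythroid intensity had a median of 6.81 in adult and 11.1 in old females and of 11.1 and 11.4 in males. The summed biliary intensity had a median of 1.91 in adult and 1.43 in old females and of 2.83 and 1.85 in males.

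miR-363, in females 1 and 8 of 104 weeks, was at 0.247 in the lower and 0.410 in the higher of both animals, against 0.0914 in the next array, 2.70-fold below the lower. For miR-342-3p and miR-146b the lower of these animals was 1.11-fold and 1.06-fold above the third highest array.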
